A study of Mus musculus with 6 samples.

Results

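The C-type lectin domain (Clec) genes were measured in whole brain 48 hours after a systemic injection of lipopolysaccharide (LPS). Members were taken as every gene whose symbol in the array's annotation is Clec followed by a digit, which gave 33 genes out of 19938 that a transcript cluster names alone. A transcript cluster is the set of array probes assigned to a transcribed locus. The 33 genes had 34 clusters, Clec4g had a pair of them, and the brighter cluster stood for that gene. The RefSeq table lists 34 Clec symbols, of which Clec2f had no such cluster and was not analysed here.

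The tested animals were 3 male C57BL/6 mice given Escherichia coli LPS i.p. at 4 mg/kg, and the controls were 3 male C57BL/6 mice given PBS i.p. All 6 were bought at 7 to 8 weeks of age, and each was profiled on its own Affymetrix mouse gene array. The RNA came from homogenized whole brain, so each value sums neurons, glia, vessels, meninges and any blood cells left in the tissue. The comparison asks how the transcripts of the brain differ when inflammation was started in the periphery.

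C-type lectins share a compact protein fold that in many members binds sugars with the help of calcium. On myeloid cells several act as receptors for fungal, bacterial or dying-cell ligands. Some pass an activating signal through a tyrosine motif (ITAM) to the kinase Syk and the adaptor Card9, while others carry an inhibitory motif (ITIM) that recruits phosphatases. In the mouse most of these receptor genes lie in 2 groups on chromosome 6, the Clec4 cluster and the natural killer (NK) gene complex, and other family members are secreted or sit on endothelium.

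Clec4a3, a myeloid receptor gene of the dendritic cell immunoreceptor (Dcir) group, was the Clec gene that rose in LPS-treated brains. It was 2.46-fold higher than in PBS brains, and no Clec gene fell. Its neighbour Clec4a1 was 1.83-fold higher and missed the threshold. Outside the Dcir group all fold changes lay between -0.30 and 0.34 on the log2 scale. Most members were at the level of genes that brain hardly transcribes.

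The Dcir genes are shown first by sequence, because the results turn on this group and its neighbours. The windows are RefSeq promoters on GRCm38.p6, each with 250 bases before and 50 bases from the annotated start and written in the direction of transcription, and 26 of the 33 genes had a window. The 4 windows printed here are on the plus strand. The first pair are Clec4a1 at chr6:122921598-122921897 and the second annotated start of Clec4a3 at chr6:122952394-122952693. Capitals mark the longest run of identical bases that these windows share.
Clec4a1: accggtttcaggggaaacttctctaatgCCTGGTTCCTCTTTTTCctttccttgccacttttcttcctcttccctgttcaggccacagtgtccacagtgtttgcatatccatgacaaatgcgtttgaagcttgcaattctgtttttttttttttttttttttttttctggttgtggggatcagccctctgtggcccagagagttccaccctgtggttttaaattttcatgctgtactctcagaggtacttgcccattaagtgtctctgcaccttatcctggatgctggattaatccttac
Clec4a3: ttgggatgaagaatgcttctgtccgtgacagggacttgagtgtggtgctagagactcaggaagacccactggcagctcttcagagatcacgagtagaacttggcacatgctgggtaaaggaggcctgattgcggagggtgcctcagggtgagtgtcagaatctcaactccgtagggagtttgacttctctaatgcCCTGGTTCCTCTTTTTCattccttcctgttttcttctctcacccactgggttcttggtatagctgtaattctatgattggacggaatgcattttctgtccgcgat
The run is 17 bases long and begins at position -222 from the start site in Clec4a1 and at position -55 in Clec4a3. Over 403 pairs of Clec windows of different genes the longest shared run had a median of 8 bases and ranged from 6 to 121, with Clec2h and Clec2e at the top. The run was picked out after the sequences were seen and is a description only. The first annotated start of Clec4a3 shared at most 8 bases in a row with Clec4a1, and their windows were 48.0% identical, against a median of 49.4% over 325 pairs of Clec genes.

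Clec4a2 at chr6:123122440-123122739 and Clec4d at chr6:123261857-123262156 are shown as examples of windows in the same gene cluster in which a searched interferon motif was found, and Clec4b1, which is not printed, was the other such window. Capitals mark the match.
Clec4a2: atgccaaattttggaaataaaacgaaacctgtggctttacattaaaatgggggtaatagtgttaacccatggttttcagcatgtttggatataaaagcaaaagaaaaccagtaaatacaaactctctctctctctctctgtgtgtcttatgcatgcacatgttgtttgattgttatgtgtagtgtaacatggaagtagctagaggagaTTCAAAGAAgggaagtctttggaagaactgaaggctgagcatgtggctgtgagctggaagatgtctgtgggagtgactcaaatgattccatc
Clec4d: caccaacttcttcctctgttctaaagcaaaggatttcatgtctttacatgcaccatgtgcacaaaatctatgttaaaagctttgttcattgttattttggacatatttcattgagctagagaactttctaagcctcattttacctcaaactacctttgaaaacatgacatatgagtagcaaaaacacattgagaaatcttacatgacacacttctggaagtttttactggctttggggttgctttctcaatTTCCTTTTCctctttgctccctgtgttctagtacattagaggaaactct
The searched letters were GAAANNGAA (the core of an interferon-stimulated response element, ISRE), TTCNNNGAA (a gamma-activated site, GAS) and GAGGAAGT (a PU.1 site), each on both strands. The ISRE core is in 8.6% of all 32851 RefSeq windows, the GAS letters in 8.3% and the PU.1 letters in 3.2%. In the Clec family the ISRE core was found in 7 of 26 genes (Clec12b, Clec2d, Clec2e, Clec2h, Clec4b1, Clec4d and Clec9a), the GAS letters in Clec4a2 alone and the PU.1 letters in 0. Counted by window, as in the share of all windows, the ISRE core was in 7 of 29. The matches of Clec2h and Clec2e lie in the run of 121 bases that their windows share, so they are the same stretch of letters. The windows of Clec4a3 and Clec4a1 held none of these letters. A match is a string of letters and not a shown binding site.

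To judge the levels, 1205 clusters that name an olfactory or vomeronasal receptor were taken as background, since brain hardly transcribes these genes. Their median on the log2 scale was 5.66 to 5.81 in the LPS arrays and 5.70 to 5.77 in the PBS arrays, and their 95th percentile averaged 6.54 in LPS brains and 6.52 in PBS brains. A gene was counted as above background where its group mean was over that percentile, and as near background between the median and the percentile. By this measure 6 of 33 Clec genes (18.2%) were above background in LPS brains and the same 6 in PBS brains, against 62% of all genes named alone in PBS brains. These were Clec4a3, Clec2l, Clec2d, Clec16a, Clec11a and Clec18a, of which Clec11a and Clec18a were below the 99th percentile of the background in both groups. A further 16 were near background in LPS brains and 13 in PBS brains, and the remaining 11 in LPS brains and 14 in PBS brains were at or below its median.

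Over all 35556 clusters limma called 232 higher (0.652%) and 22 lower (0.0619%) at an adjusted p under 0.05. The axis of largest variation between arrays, with 54.5% of the variance, placed LPS replicates 1 and 2 at -32.9 and -48.3, while LPS replicate 3 was at 15.2, close to the PBS arrays at 16.1 to 25.2. Values without single LPS arrays are therefore given where a call was lost. Calls gained without LPS replicate 3 are named with their genes or lists. That fit called 2640 of 35556 clusters higher and 1152 lower, and each call gained without LPS replicate 3 stands beside these counts. Brain markers such as Snap25 (synapse), Gfap (astrocyte) and Mbp (myelin) were above background in both groups for 7 of 7 measured genes, as the label of whole brain requires. Gfap was called higher when LPS replicate 3 was left out. Fewer cells of a type and less RNA per cell cannot be told apart in these samples.

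Of the 33 Clec genes 1 passed the test as higher and 0 as lower, which is 3.03% against 0.652% and 0% against 0.0619% of all clusters. At an unadjusted p under 0.05 there were 4 higher and 1 lower. The 3 LPS arrays lay above the 3 PBS arrays in 4 members, against 9.73% of all clusters, and below them in 1 member, against 10.3%. Those 5 members (15.2%) also had an unadjusted p under 0.05, which holds for 12.3% of all clusters, so as a family the Clec genes were near the background share. Differences were positive for 17 members and negative for 16, with a median of 0.01 against -0.02 over all genes named alone. The sign of 7 small differences (Clec10a, Clec16a, Clec1a, Clec2d, Clec2h, Clec2i and Clec3a) turned with the scaling of the arrays.

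**Figure D1:**
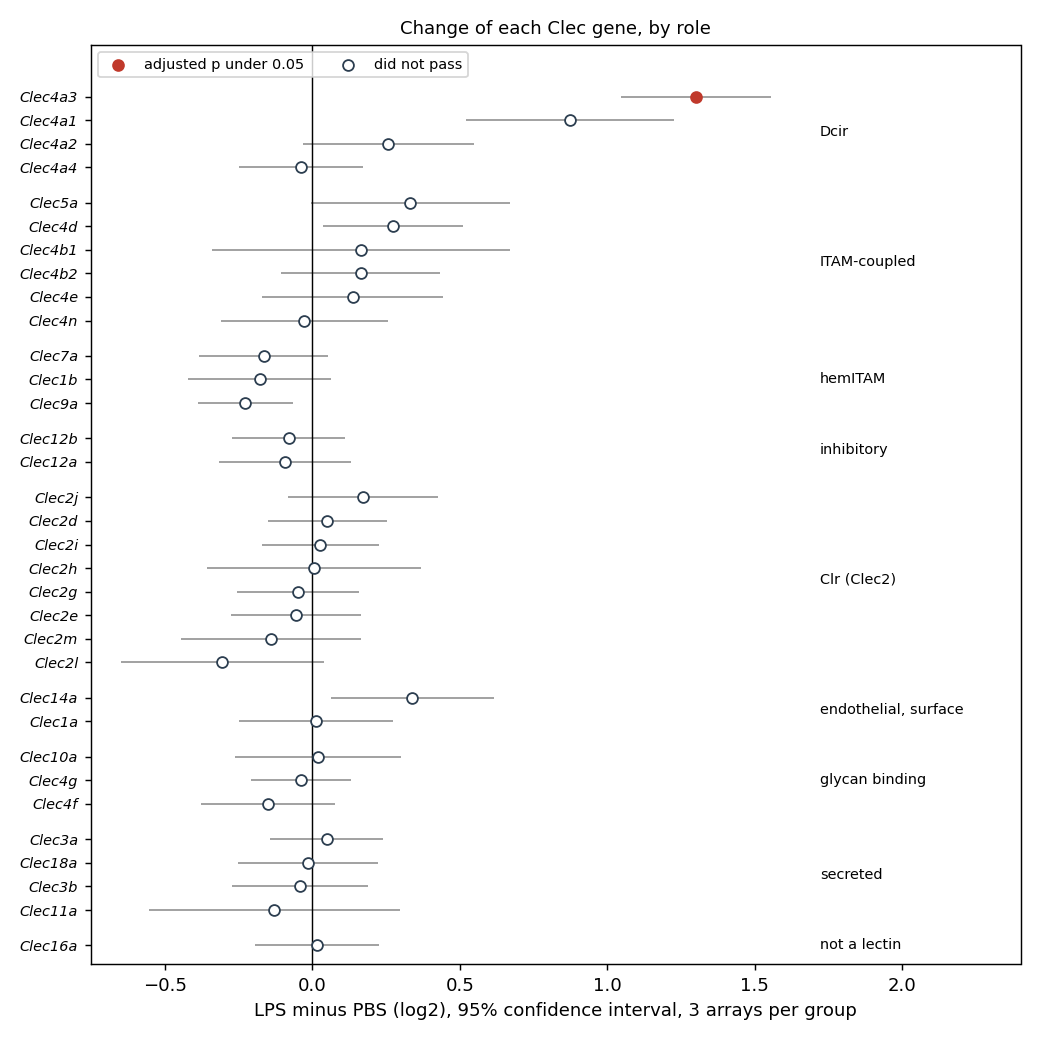
Log2 difference (LPS minus PBS) of each of the 33 Clec genes with its 95% confidence interval from limma, 3 arrays per group, ordered by role. The filled point is Clec4a3 at 1.30; the open points did not pass the test and lie between -0.30 and 0.87.

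The Dcir genes encode single-pass receptors of monocytes, macrophages and dendritic cells, of which the products of Clec4a2 and Clec4a4 carry an ITIM. Of the 4 genes 1 rose, 0 fell and 3 did not pass, with a median difference of 0.57. Clec4a3 (chromosome 6, 122952515 to 122969878, GRCm38.p6) had log2 levels of 8.42, 8.52 and 8.65 in LPS brains and 7.06, 7.31 and 7.33 in PBS brains. Every LPS array was above every PBS array, with 1.09 between the nearest values, and the gene was above background in both groups. The means were 8.53 ± 0.12 in LPS brains and 7.23 ± 0.15 in PBS brains (SD, n = 3 each). The difference was 1.30 with an SE of 0.11, or 2.46-fold with a 95% interval of 2.06 to 2.94 and a limma adjusted p of 0.00456.

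Among the 169 genes named alone that rose, Clec4a3 was the 44th by fold and the 36th by p. With each array left out in turn its difference was 1.21 to 1.36 and it passed in 6 of 6 fits, with adjusted p between 0.00509 and 0.0378. It did not pass with LPS replicates 1 and 2 both left out (1.42, limma adjusted p 0.0561) or by the methods' t-test run in place of limma (adjusted p 0.0889).

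Clec4a1 (chromosome 6, 122921848 to 122934619), which is known mainly from monocytes and macrophages, had log2 levels of 6.29, 6.48 and 6.81 in LPS brains and 5.52, 5.63 and 5.81 in PBS brains. The groups were apart by 0.49, but the level was near background in LPS brains and below the background median in PBS brains. The difference was 0.87 with an SE of 0.15, or 1.83-fold (95% interval 1.44 to 2.34), with a limma adjusted p of 0.0735. It passed without LPS replicate 3 (0.73, adjusted p 0.0163) and when limma was run over clusters that name 1 gene (adjusted p 0.0173). The fit without LPS replicate 3 called 2 of 33 Clec genes higher, beside 2640 of all 35556 clusters. LPS replicate 3 held the highest value of both Clec4a3 and Clec4a1, and it was the highest LPS array for 17 of the 33 Clec genes.

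Clec4a2 encodes the inhibitory receptor DCIR itself, and its levels were 6.12, 5.89 and 6.17 in LPS brains and 5.61, 5.84 and 5.96 in PBS brains. The groups overlapped, and the difference of 0.26 (limma adjusted p 0.390) had an interval of 0.978-fold to 1.46-fold. Clec4a4, an inhibitory receptor of a dendritic cell subset, was at 5.67, 5.73 and 5.70 in LPS brains and 5.80, 5.59 and 5.82 in PBS brains. Its values straddled the background median and overlapped, with a difference of -0.04.

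**Figure D2:**
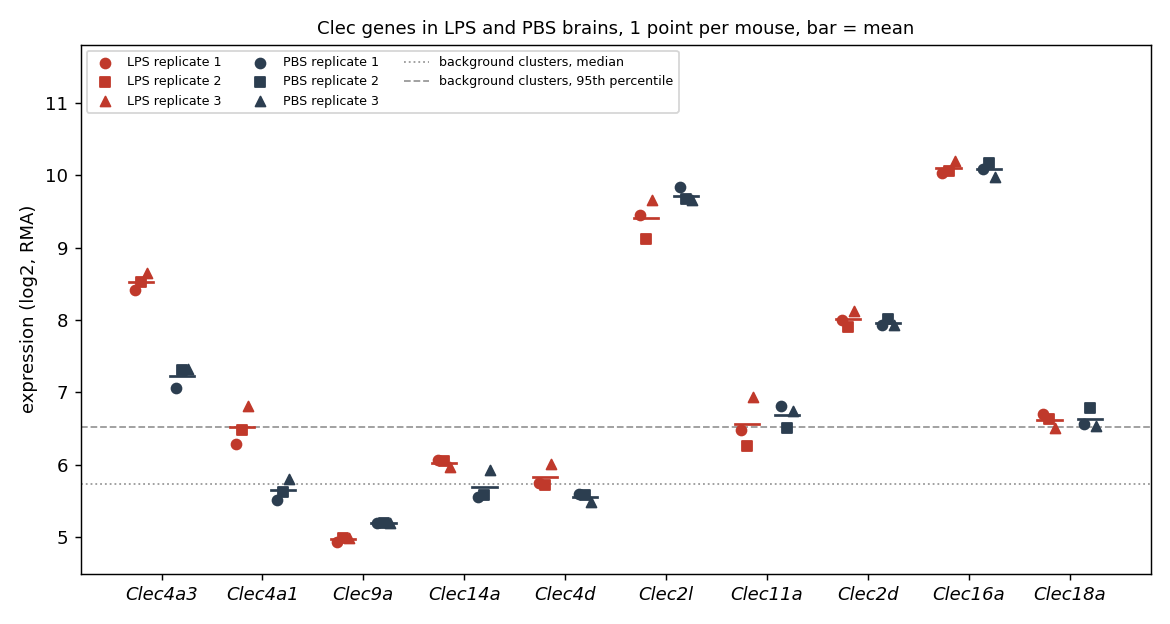
Log2 expression of the 10 Clec genes that were called, had their groups apart or were above background, 1 point per mouse, LPS to the left of PBS, with the mean as a bar and the median and 95th percentile of background clusters as lines. Clec4a3 separates the groups above the background lines, at 8.42 to 8.65 in LPS brains and 7.06 to 7.33 in PBS brains.

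The receptors that borrow an ITAM from a partner chain are Clec4d and Clec4e (MCL and Mincle, which bind the mycobacterial cord factor), Clec4n (Dectin-2, which binds mannans), Clec4b1 and Clec4b2 (the Dcar receptors), all with the Fc receptor gamma chain, and Clec5a (MDL-1), with DAP12. None of the 6 passed the test, 5 of the differences were positive and their median was 0.17. Clec4d had 5.75, 5.73 and 6.01 in LPS brains and 5.60, 5.58 and 5.49 in PBS brains. Its groups were apart by 0.13 around the background median, and the difference of 0.27 (1.21-fold, 95% interval 1.03 to 1.42) had a limma adjusted p of 0.303. Clec5a had 6.19, 5.90 and 6.43 in LPS brains and 5.93, 5.87 and 5.72 in PBS brains, which overlapped (difference 0.33, limma adjusted p 0.355). Clec4b1, Clec4b2, Clec4e and Clec4n differed by -0.03 to 0.17, and 0 of the 6 genes were above background in either group.

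The receptors with a single tyrosine motif of their own are Clec7a (Dectin-1, the beta-glucan receptor), Clec1b (CLEC-2, the podoplanin receptor of platelets) and Clec9a (DNGR-1, a dendritic cell sensor of actin from dead cells). All 3 were at or below the background median in both groups and none passed. Clec9a had 4.94, 4.99 and 4.99 in LPS brains and 5.20 in each of the 3 PBS brains. The LPS arrays were all below the PBS arrays, by 0.21, at a level where the array shows little but background (difference -0.23, limma adjusted p 0.245). Clec7a had 5.35, 5.58 and 5.51 in LPS brains and 5.58, 5.74 and 5.63 in PBS brains, with a difference of -0.16 (limma adjusted p 0.450). Clec1b differed by -0.18 (limma adjusted p 0.462).

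The inhibitory receptors outside the Dcir group did not pass either. Clec12a (MICL, which binds uric acid crystals) averaged 6.24 in LPS brains and 6.33 in PBS brains, near background, and Clec12b averaged 5.41 in LPS brains and 5.49 in PBS brains. Their differences were -0.09 and -0.08.

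The Clec2 or Clr genes encode surface proteins of which several are ligands of NK cell receptors of the Klrb1 family. None of the 8 passed, with a median difference of -0.02. Clec2l, a member known from neurons, had 9.45, 9.12 and 9.66 in LPS brains and 9.83, 9.67 and 9.65 in PBS brains. It was among the brightest Clec genes, and the groups overlapped through LPS replicate 3. The difference of -0.30 (0.810-fold, 95% interval 0.639 to 1.03) had a limma adjusted p of 0.391.

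Clec2d, the ligand of the inhibitory receptor Klrb1b, had 8.00, 7.90 and 8.12 in LPS brains and 7.93, 8.01 and 7.93 in PBS brains. These values overlapped throughout, and the 95% interval of the ratio was 0.901 to 1.19. The other 6 Clr genes, the pseudogene Clec2j among them, averaged 5.02 to 6.02 in LPS brains and 5.07 to 6.02 in PBS brains and differed by -0.14 to 0.17. Clec2h and Clec2e had the most alike promoters of the family (79.6% identical), and their differences were 0.01 and -0.06.

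The remaining surface members are endothelial or glycan-binding. Clec14a, an endothelial receptor of the matrix protein Mmrn2, had 6.07, 6.06 and 5.97 in LPS brains and 5.56, 5.58 and 5.93 in PBS brains. The LPS arrays were all higher, by 0.04 over PBS replicate 3, and the difference of 0.34 (1.27-fold, 95% interval 1.05 to 1.53) had a limma adjusted p of 0.284. Clec1a, also found on endothelium, differed by 0.01 near background. Clec4f (a Kupffer cell receptor), Clec4g (of sinusoidal endothelium) and Clec10a (a galactose-type lectin of macrophages) differed by -0.15, -0.04 and 0.02 at levels not above background.

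The secreted members are Clec11a (a growth factor of bone marrow stroma), Clec18a, Clec3a (of cartilage) and Clec3b (tetranectin, which binds plasminogen), and none of the 4 passed. Clec11a had 6.48, 6.26 and 6.94 in LPS brains and 6.81, 6.51 and 6.74 in PBS brains. The spread within the LPS group exceeded the difference of -0.13 (limma adjusted p 0.773). Clec18a had 6.70, 6.64 and 6.51 in LPS brains and 6.57, 6.79 and 6.54 in PBS brains, which also overlapped. Clec3a and Clec3b differed by 0.05 and -0.04.

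Clec16a carries the family name but encodes a protein of endosomes and autophagy rather than a lectin receptor. It was the brightest Clec gene, with 10.03, 10.05 and 10.20 in LPS brains and 10.08, 10.17 and 9.98 in PBS brains. The 95% interval of the ratio was 0.875 to 1.17. Array levels of different genes are not on a common scale, so the order of brightness is that of the probes and not of transcript numbers.

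**Figure D3:**
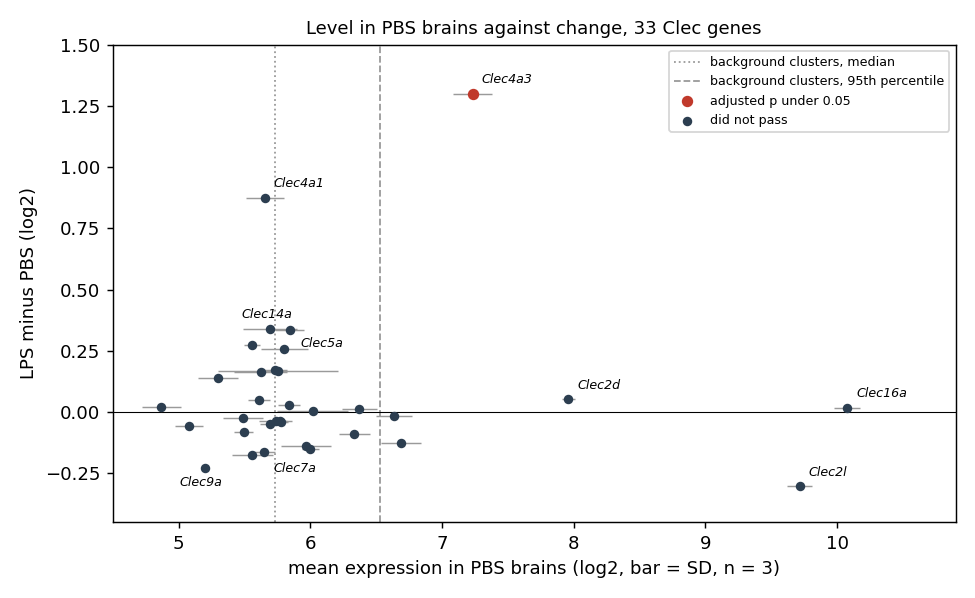
Mean log2 level in PBS brains (bars are SD, n = 3) against the log2 difference (LPS minus PBS) of the 33 Clec genes, with the median and 95th percentile of background clusters as vertical lines. Most genes lie left of the 95th percentile, and Clec4a3, at 7.23 in PBS brains, is the gene to its right with a difference over 1.

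By position, 9 members form the Clec4 cluster of chromosome 6 (122921848 to 123289871, a span of 368 kb on GRCm38.p6). In this cluster 1 gene rose, 7 differences were positive, 2 were negative and the median was 0.17. Clec4a3 lies 17.9 kb from Clec4a1 and 20.5 kb from Clec4a4, whose difference was -0.04. The 13 members in the NK complex (128655105 to 129472785, 818 kb) held 0 called genes and 5 positive and 8 negative differences, with a median of -0.06. The annotated span of Clec12b holds Clec1b and Clec9a and overlaps Clec1a, so probes in that stretch could be shared between transcripts.

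**Figure D4:**
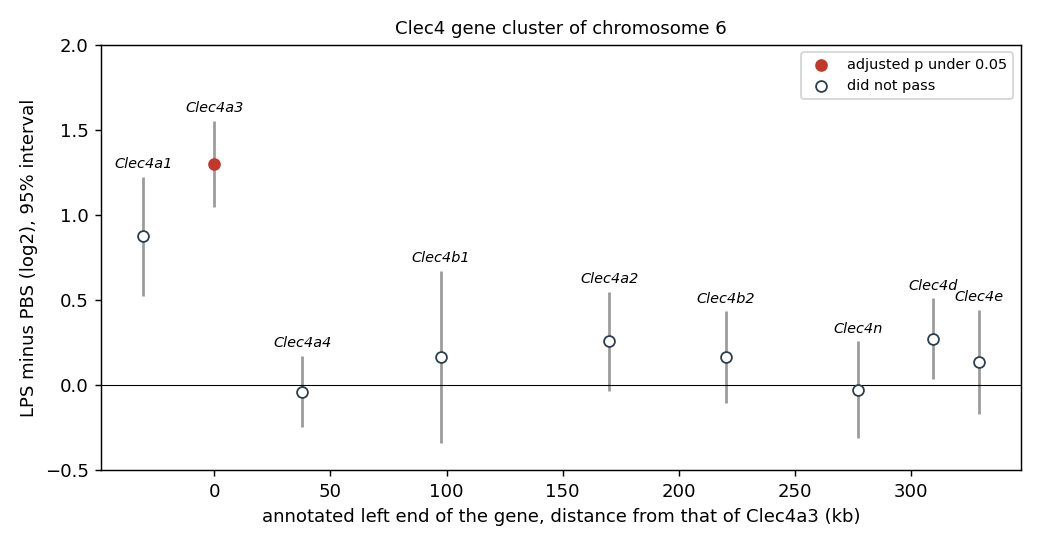
Log2 difference (LPS minus PBS) with its 95% confidence interval for the 9 genes of the Clec4 cluster, by distance in kb from the left end of Clec4a3. The interval of Clec4a3 (1.30) and that of Clec4a1 (0.87) lie above those of Clec4a4 (-0.04) and Clec4n (-0.03).

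The signalling partners of these receptors were counted from lists, none of which was tested as a set. Of all genes named alone 0.848% rose, and 21% had their groups apart in either direction. Of 19 measured genes of the Syk and Card9 pathway 1 rose and 0 fell, with a median of 0.13. That gene was Fcer1g, the gamma chain that carries the ITAM for Clec4d, Clec4e and Clec4n. It had 9.68, 9.75 and 10.07 in LPS brains and 8.57, 8.83 and 8.17 in PBS brains, which did not overlap (difference 1.31, limma adjusted p 0.0371). The call was lost when any array but LPS replicate 3 was left out, with adjusted p up to 0.153. Tyrobp, which encodes DAP12, was at 9.08, 8.95 and 9.62 in LPS brains and 8.85, 8.80 and 8.77 in PBS brains (0.41, limma adjusted p 0.346). Plcg2, Btk and Vav1, which act downstream of Syk, differed by 0.39, 0.42 and 0.44 and did not pass, and Syk and Card9 themselves differed by 0.09 and 0.18.

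Of the 7 phosphatase and adaptor genes of the inhibitory arm 0 passed in either direction, and the median was -0.02. Ptpn6 was called higher when LPS replicate 3 was left out (limma adjusted p 0.0481). Ptpn6 (SHP-1) had 7.20, 7.19 and 7.19 in LPS brains and 6.81, 6.94 and 6.79 in PBS brains. Its groups were apart (0.35, limma adjusted p 0.133), as were those of Inpp5d (SHIP-1; 0.38, limma adjusted p 0.214). Groups were also apart in 2 genes that were lower in LPS brains, and 5 of the 7 differences were negative. Of all genes named alone 21% had their groups apart in either direction.

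Among 17 measured ligands and partners of Clec proteins 3 rose and 0 fell, with a median of 0.11. Tlr2, a Toll-like receptor that works beside Dectin-1, had 7.45, 7.37 and 7.54 in LPS brains and 5.73, 5.86 and 5.88 in PBS brains (1.63, limma adjusted p 0.00144). Cd93, an endothelial lectin-domain relative of Clec14a that also binds Mmrn2, had 9.58, 9.84 and 9.55 in LPS brains and 7.46, 6.59 and 7.11 in PBS brains (2.60, limma adjusted p 0.00465). Both genes passed with each array left out in turn.

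Lgals9, which encodes galectin-9, had 9.11, 9.04 and 9.39 in LPS brains and 8.00, 8.23 and 7.70 in PBS brains (1.20, limma adjusted p 0.0264). The groups did not overlap, but the call was lost when any array but LPS replicate 3 was left out, with adjusted p up to 0.130. Mmrn2 differed by 0.59 (limma adjusted p 0.124), Pdpn, the podoplanin ligand of CLEC-2, by -0.13, and Klrb1b, the receptor of Clec2d, by -0.21. None of these 3 passed with all arrays in the fit. Without LPS replicate 3 the list of ligands and partners held 6 higher calls and 1 lower. In that fit 2640 of all 35556 clusters were called higher and 1152 lower. Klrb1f, Hmgb1, Mmrn2 (limma adjusted p 0.0442) and Rnf41 then joined Tlr2, Cd93 and Lgals9.

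Other genes with C-type lectin domains were counted in the same way. Of 47 measured receptors outside the Clec symbols 1 rose (Cd93, which is also counted among the partners above) and 0 fell, with a median of -0.01. Cd72, an inhibitory receptor of B cells that is also found on macrophages, had 7.19, 7.67 and 7.86 in LPS brains and 6.58, 5.99 and 5.98 in PBS brains. The groups were apart and the gene missed the threshold (1.39, limma adjusted p 0.0609). Without LPS replicate 3, Cd72 (limma adjusted p 0.0238), Klrb1f and Sele were called higher beside Cd93. Mrc1, the macrophage mannose receptor, differed by 0.37 (limma adjusted p 0.250). Of 24 secreted or matrix lectin genes 0 passed in either direction, with a median of 0.01, and the brain proteoglycan gene Bcan differed by -0.26 (limma adjusted p 0.216). Mbl2 was called lower when LPS replicate 3 was left out.

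Markers of the cell types that carry these receptors were set beside them, and the share of all genes named alone that rose was 0.848%. All 7 endothelial markers rose, by 0.66 to 1.08, with Emcn (endomucin) at 9.52, 9.35 and 9.47 in LPS brains and 8.43, 8.25 and 8.41 in PBS brains and Cldn5 (claudin) at 8.50, 8.50 and 8.67 in LPS brains and 7.58, 7.58 and 7.55 in PBS brains. Leaving out PBS replicate 1 or 2 kept 3 of the 7 calls, leaving out LPS replicate 1, LPS replicate 2 or PBS replicate 3 kept 4 or 5, and leaving out LPS replicate 3 kept all 7. Against these, the endothelial Clec14a was 0.34 higher and Clec1a was 0.01 higher. The part of endothelial transcripts in the Clec values was not tested.

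For microglia, 0 of 7 measured markers passed and 6 of 7 were above background, with Cx3cr1 0.47 higher (limma adjusted p 0.216). All 7 differences were positive, with a median of 0.11, and the groups were apart in 3 markers. Of all genes named alone 21% had their groups apart in either direction. The mean of the microglial list was 8.07, 8.20 and 8.38 in LPS brains and 8.11, 7.98 and 7.98 in PBS brains, which overlapped. Its highest value was in LPS replicate 3, as were those of the endothelial, border macrophage, neutrophil and brain marker lists. For border macrophages 1 of 8 markers rose, Stab1 (0.70, limma adjusted p 0.0405), and that call was lost when any array but LPS replicate 3 was left out. Of the 8 differences 5 were positive and 3 negative, down to -0.23, with a median of 0.16. The groups were apart in 3 markers, all higher in LPS brains. The list mean was 6.34, 6.37 and 6.54 in LPS brains and 6.17, 6.26 and 6.21 in PBS brains. The part of microglial and macrophage numbers in the difference of Clec4a3 was not tested.

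Markers of blood cells that carry Clec receptors did not pass the test. Of 10 neutrophil markers 0 passed and 0 were above background in either group, with S100a8 averaging 5.79 in LPS brains and 5.78 in PBS brains. Of 5 monocyte markers 0 passed, 3 differences were positive and 2 negative, with a median of 0.04, and 2 markers were above background in LPS brains and 1 in PBS brains. F13a1 had 6.52, 6.57 and 6.67 in LPS brains and 6.04, 6.31 and 6.13 in PBS brains, with the groups apart (0.43, limma adjusted p 0.147). Ccr2 averaged 5.53 in LPS brains and 5.82 in PBS brains, at or near the background median, with the groups overlapping. The list mean was 6.37, 6.40 and 6.40 in LPS brains and 6.22, 6.44 and 6.31 in PBS brains, which overlapped. None of 7 dendritic cell, 4 platelet or 7 NK cell markers passed, and 2, 1 and 1 of them were above background in each group. The platelet gene Ppbp and the NK gene Ncr1 were not. The NK markers differed by -0.78 to 0.57, with a smallest limma adjusted p of 0.0768. Their groups were apart in 2 markers that were higher and 1 that was lower. Groups were also apart in 2 neutrophil markers and 1 monocyte marker that were higher, and in 1 dendritic cell marker that was lower. Of all genes named alone 21% had their groups apart in either direction. Without LPS replicate 3, Gzma and Eomes were called, 1 higher and 1 lower.

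**Figure D5:**
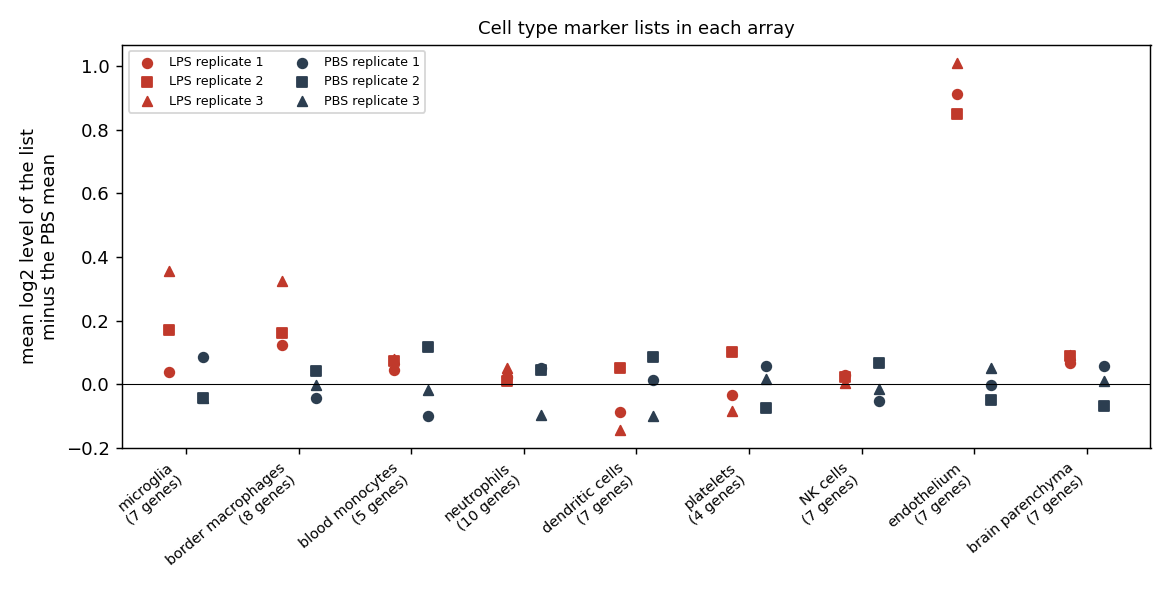
Mean log2 level of each cell type's marker list in each array, minus the mean of the 3 PBS arrays, with LPS to the left of PBS. The endothelial list is 0.85 to 1.01 above the PBS mean in LPS brains, the microglial list 0.04 to 0.36 and the border macrophage list 0.12 to 0.32.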

How the data were processed

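The values were the authors' deposited log2 expression values, 1 array per mouse, made by robust multichip average (RMA), which corrects background, normalizes between arrays and summarises probes. The methods name a GC-adjusted RMA and RMA 16, and the sources used here do not say which of them gave the deposited values. The authors' gene list made with the GC-adjusted RMA gives Clec4a3 the same fold as the deposited values, 2.46. Precision is limited by the number of arrays.

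Clusters were named from the platform annotation and genes were placed on GRCm38.p6 through RefSeq. LPS and PBS arrays were compared with limma 3.58.1 (R 4.3.3) by two-sided tests. P-values were adjusted after Benjamini and Hochberg across all 35556 clusters, and genes under 0.05 were called. No filter was applied. P-values measure the spread between 3 mice per group. Identity between promoters came from global alignment in Biopython 1.88. Members described in full are those called, those with groups apart at an unadjusted p under 0.05 and those above background in PBS brains. Up to 4 genes of each list were taken by smallest p, and other list genes were chosen after their values were seen, for their role. The members and lists were chosen with earlier results of these data known.

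The alternatives were the methods' t-test, array weights, robust eBayes or eBayes with a trend, centring on the median of the array or of the background, quantile normalization, leaving out the 40% dimmest clusters, clusters naming 1 gene, a replicate block, thresholds of 0.1 and 0.01, each array left out, LPS replicates 1 and 2 both left out, the mean of a gene's clusters and other background limits. In simulated data with 3 arrays per group 30%, 64%, 86% and 94% of clusters changed 1.5-, 2-, 3- and 4-fold were recovered, with 4 false calls. Each cluster was drawn independently with its own SD, so no deviation was shared by a whole array. The real arrays hold such a deviation, in LPS replicate 3, so these rates need not hold for them.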

Additional observations from a re-analysis of the deposited data

How the results depend on the processing

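The direction of Clec4a3 held in all 18 alternatives (1.21 to 1.42) and its call in 16, with adjusted p up to 0.0889. It missed the threshold by the methods' t-test (1.30) and with LPS replicates 1 and 2 both left out (1.42), where the variance of the lone LPS array is taken from the PBS group. Clec genes called higher numbered 0 by the t-test, 0 with both those arrays out, 2 over clusters naming 1 gene, 2 at an adjusted p under 0.1, 1 to 2 with each array left out, and 6 with array weights, which also called 2 lower. Those weights gave LPS replicate 1 a weight of 8.69, against 0.253 to 1.20 for the other arrays. With them 4751 of all 35556 clusters were called higher and 3572 lower, so the Clec counts stand beside a large share of all clusters. The Clec calls with weights were Clec14a, Clec4a1, Clec4a2, Clec4a3, Clec4e and Clec5a higher and Clec7a and Clec9a lower. Leaving out the dimmest 40% of clusters kept 6 Clec genes in the test.

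Clusters called higher and lower were 4 and 1 by the t-test, 4751 and 3572 with array weights, 141 and 10 centred on the array median, 76 and 4 with the replicate block, 356 and 64 at a threshold of 0.1, 97 and 0 at 0.01, 71 and 12 with both arrays out, and 74 to 2640 and 0 to 1152 with each array left out, most without LPS replicate 3. Lower calls alone were 13 after quantile normalization, 8 centred on the background median and 61 over clusters naming 1 gene. Same-numbered arrays deviated together with correlations of 0.087, -0.054 and 0.0997, against -0.17 to 0.15 for arrays of different numbers. No pairing by number was seen, but 3 arrays per group cannot exclude one. The replicate block kept Clec4a3 as the 1 Clec gene called. Signs turned for Clec16a (-0.041 with weights, -0.075 centred on the array median), Clec18a (0.067 with weights), Clec2d (-0.0067 after quantile normalization, -0.040 centred on the array median) and Clec11a (0.25 with both arrays out). With each array left out Clec11a ranged from -0.32 to 0.019, Clec16a from -0.034 to 0.064, Clec18a from -0.063 to 0.063 and Clec2d from -0.0055 to 0.10. With the background median as the limit 22 Clec genes in LPS brains and 19 in PBS brains were above it. With the 99th percentile as the limit 4 were above it in each group, without Clec11a and Clec18a. The causes were not tested. Leaving arrays out of the gene lists was chosen after seeing the data.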
